A study of Mus musculus with 42 samples.

Results

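The sperm chromatin packaging genes are the 8 mouse genes Prm1, Prm2, Prm3, Tnp1, Tnp2, Hils1, H1fnt and Brdt, which were taken by name from a table of 26653 genes. All 8 were listed in testes and in the 6 other tissues used here. The table compared wild-type (WT) with Tug1 knockout (KO, Tug1-/-) male mice of the strain Tug1_tm1.1Vlcg, in which a lacZ reporter stood in place of the long noncoding RNA gene Tug1 on both alleles in the KO and on neither in the WT. The KO males are sterile, and the question was whether late spermatid transcripts were still made in their testes. Polyadenylated RNA was sequenced from 4 WT and 3 KO testes samples, from 3 WT and 2 KO prostate samples, and from 3 WT and 3 KO samples each of spleen, eye, heart, liver and passage 2 embryonic fibroblasts (MEFs). The labels gave a C57BL/6J background without the neomycin cassette for all groups and no age for the mice. The deletion was carried in the germ line, so it was not limited to 1 cell type, and it left the Tug1 promoter in place.

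During the last part of sperm formation the nucleus of the haploid spermatid is repacked. Histones are first loosened by acetylation, then replaced by small basic transition proteins, and the transition proteins are in turn replaced by protamines, which condense the DNA of the sperm head. Brdt is a bromodomain protein that binds acetylated histones and acts from the spermatocyte stage onward. Hils1 and H1fnt are spermatid linker histones of the H1 type. Tnp1 and Tnp2 are the transition proteins, and Prm1 and Prm2 are the protamines. Prm3 lies in the protamine gene cluster but encodes an acidic protein that is not known to package DNA. The transition protein and protamine transcripts are made in round spermatids and stored for translation in elongating spermatids, so the RNA level does not give the amount of protein.

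The values were FPKM (fragments per kilobase of transcript, scaled to the mapped fragments of the library), with 1 value for each genotype and tissue that combined the replicates. No value of a single mouse was used, and the test columns that the authors placed in the same table were left aside, so the differences below are given without SD, interval or test and were not set against the spread between mice. The depth behind each value is unknown. A change is log2((KO + 0.1)/(WT + 0.1)) in FPKM, and a gene is counted as past the fold when it differed by more than 1.5 fold and its mean of WT and KO was at least 1 FPKM. Tug1 itself was at 27.7 FPKM in WT and 0.402 FPKM in KO testes, and the lacZ cassette was at 0.0063 FPKM in WT and 54.3 FPKM in KO testes. In each of the 6 other tissues Tug1 was also between 11.2 and 22.7 FPKM in WT and below 0.184 FPKM in KO, so the genotype labels held in every tissue.

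The chromatin packaging transcripts were abundant in the testes of both genotypes, and 7 of the 8 were between 11.2% and 18.0% lower in the KO. Brdt was level. None of the 8 was past 1.5 fold, against a background of 1.92% of the 15143 genes with a mean of at least 1 FPKM in testes. The 8 values summed to 41230 FPKM in WT and 35359 FPKM in KO, which was 5.66% and 5.20% of the FPKM of all genes. The median change of the 8 genes was -0.21 on the log2 scale, beside -0.06 for all genes with a mean of at least 1 FPKM. Of those genes, 63.6% were lower in the KO by any amount. These are bulk samples, in which fewer cells of a type and less RNA per cell cannot be told apart.

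**Figure D1:**
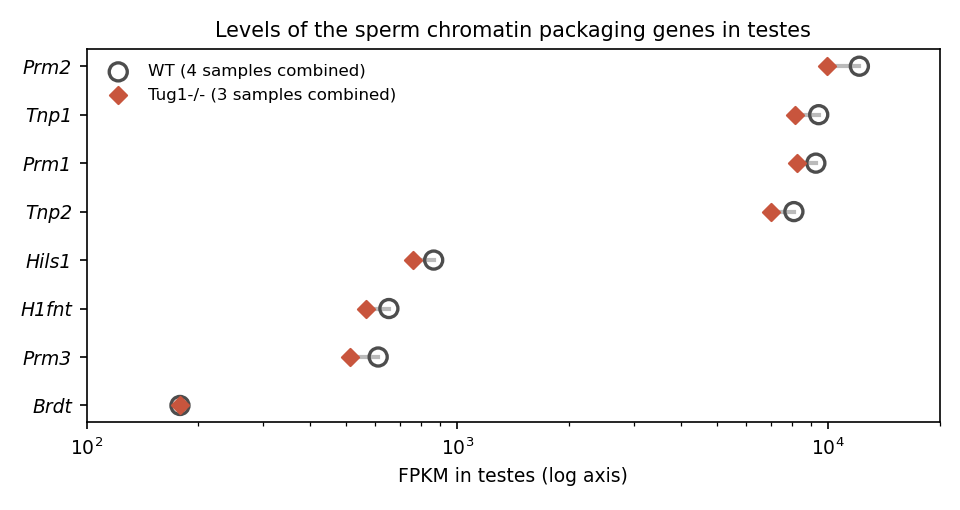
FPKM in testes (horizontal log axis) of the 8 sperm chromatin packaging genes, ordered from the highest WT level. Open circles are WT (4 samples combined) and diamonds are KO (3 samples combined), with no error bars because 1 combined value was given per genotype. The diamond lies left of the circle for 7 genes, by 11.2% to 18.0%, and on it for Brdt at 179 and 178 FPKM. After centring on elongated spermatid markers the small remaining difference of Prm1 turned to +0.01. That sign follows from a fixed upward shift of every change and is no separate result.

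The protamines came first. Prm2 was at 12141 FPKM in WT and 9957 FPKM in KO testes, a change of -0.29. It was the most abundant transcript of the testes in both genotypes and had the lowest change of the 8 genes. Prm1 was at 9265 FPKM in WT and 8230 FPKM in KO, a change of -0.17, and moved from rank 3 to rank 2. Prm3 was at 612 FPKM in WT and 513 FPKM in KO, a change of -0.25, and moved from rank 124 to rank 146. Prm3 stood at a much lower level than its neighbours, with a Prm2 to Prm3 ratio of 19.9 in WT and 19.4 in KO. The Prm2 to Prm1 ratio was 1.31 in WT and 1.21 in KO. This is a difference of -0.12 on the log2 scale and was not set against the spread between mice.

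The transition proteins were lower by nearly the same proportion. Tnp1 was at 9432 FPKM in WT and 8161 FPKM in KO, a change of -0.21. Tnp2 was at 8085 FPKM in WT and 6995 FPKM in KO, also a change of -0.21. Their ratio was 1.17 in both genotypes. Tnp1 moved from rank 2 to rank 3 and Tnp2 kept rank 4, so the same 4 genes, Prm1, Prm2, Tnp1 and Tnp2, were the 4 most abundant transcripts in WT and in KO testes. Together they made up 5.34% of the FPKM in WT and 4.90% in KO.

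The spermatid linker histones followed the transition proteins closely. Hils1 was at 863 FPKM in WT and 757 FPKM in KO testes, a change of -0.19, and moved from rank 61 to rank 68. H1fnt was at 654 FPKM in WT and 567 FPKM in KO, a change of -0.21, and moved from rank 105 to rank 117. The Hils1 to H1fnt ratio was 1.32 in WT and 1.34 in KO. The 7 genes without Brdt spanned 0.12 on the log2 scale, from -0.29 for Prm2 to -0.17 for Prm1, and their WT levels ran from 612 to 12141 FPKM. That span is the Prm2 to Prm1 difference given above. Over the 167 genes with a mean of at least 500 FPKM, the 10th to 90th percentile of the change ran from -0.23 to -0.03.

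Brdt, the gene of the group whose product acts earliest, stood apart. It was at 179 FPKM in WT and 178 FPKM in KO testes, a change of -0.0019. Its rank moved from 825 to 742. Among the genes with a mean of at least 1 FPKM, 63.2% had a lower change than Brdt, while 5.91% had a lower change than Prm2 and 19.0% had a lower change than Prm1.

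The size of these differences was shared by other abundant testis transcripts. The median change was -0.13 over the 1508 genes with a mean of at least 100 FPKM and -0.14 over the 167 genes with a mean of at least 500 FPKM, of which 91.0% were lower in the KO. Within those 167 genes, 0.599% had a lower change than Prm2 and 2.99% a lower change than Prm3. For Tnp1, Tnp2, Hils1, H1fnt and Prm1 the shares ran from 18.6% to 34.7%. Prm2 and Prm3 therefore lay at the low edge of the abundant genes, and the other 5 lay inside the lower part of their range.

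**Figure D2:**
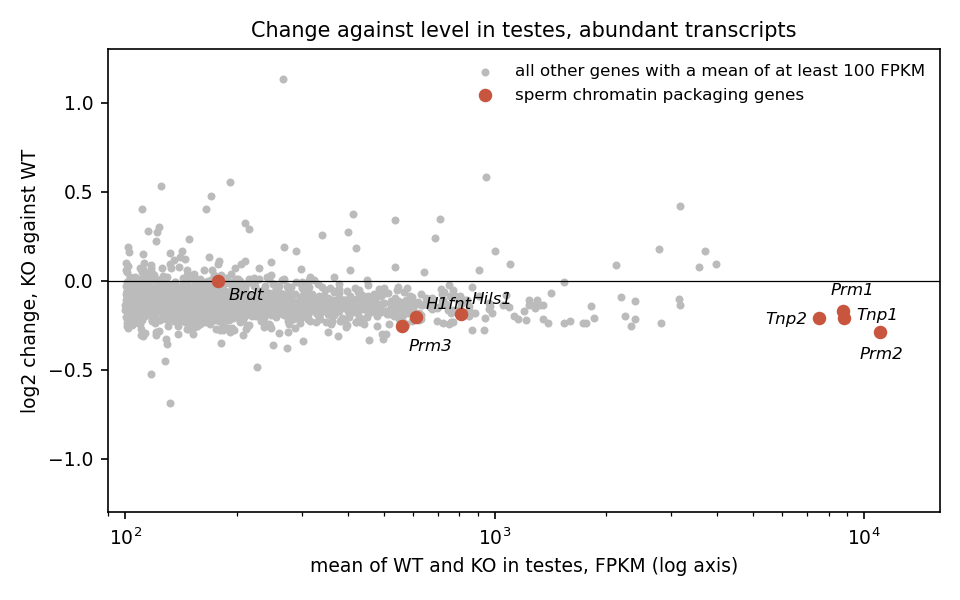
Log2 change in testes, KO against WT (vertical axis), against the mean FPKM of WT and KO (horizontal log axis) for the 1508 genes with a mean of at least 100 FPKM. Large points are the sperm chromatin packaging genes; 7 of them lie between -0.29 and -0.17, below the median of -0.13, with Prm2 and Prm3 also below the 10th percentile of -0.22, and Brdt lies at -0.0019. With both genotypes scaled to the same total, Brdt turned to 0.098, and with centring on elongated spermatid markers Prm1 turned to 0.013. Both follow from an upward shift of every change and are no separate results.

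The direction of the small differences depended on how the genotypes were scaled. The FPKM of all genes summed to 728941 in WT and 680023 in KO testes. With the KO scaled to the WT total, every change shifted by about 0.10 upward. The median of the 8 genes became -0.11, beside 0.039 for all genes, and 7 of 8 remained lower, with Brdt at 0.098. With the changes centred on the median of 16 elongated spermatid markers, the median of the 8 genes was -0.023, beside 0.12 for all genes. Prm1 was at 0.013 and Brdt at 0.18, and the other 6 were lower, from -0.10 for Prm2 to -0.0047 for Hils1. The share of all genes lower in the KO is not given here for these scalings. This centring shifted every change upward by 0.18, so a sign under it follows from the main value and is no separate result. None of the 8 was past 1.5 fold under any of these scalings.

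Marker lists for the steps of spermatogenesis gave the frame for these values. The lists were chosen with results of these data known, so their counts are descriptions. The 8 spermatogonia markers with a mean of at least 1 FPKM had a median change of 0.04, with 6 higher and 2 lower. The 12 spermatocyte markers had a median of -0.05, which turned to 0.01 with the changes centred on all genes, to 0.05 with equal totals and to 0.14 with centring on elongated spermatid markers. The 12 round spermatid markers had a median of -0.12, all lower, and the 16 elongated spermatid markers had a median of -0.18, all lower. With equal totals the medians of the round and elongated spermatid markers were -0.02 and -0.08, with 8 of 12 and 15 of 16 genes lower, and centring on the elongated spermatid markers turned the round spermatid median to 0.07. No gene of these 4 lists was past 1.5 fold. The medians of these 4 lists ran downward from the spermatogonia list to the elongated spermatid list. How far each gene is limited to the stage of its list was not tested. Of the 8 chromatin packaging genes, 6 had a lower change than the elongated spermatid median, with Prm1 and Brdt above it.

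**Figure D3:**
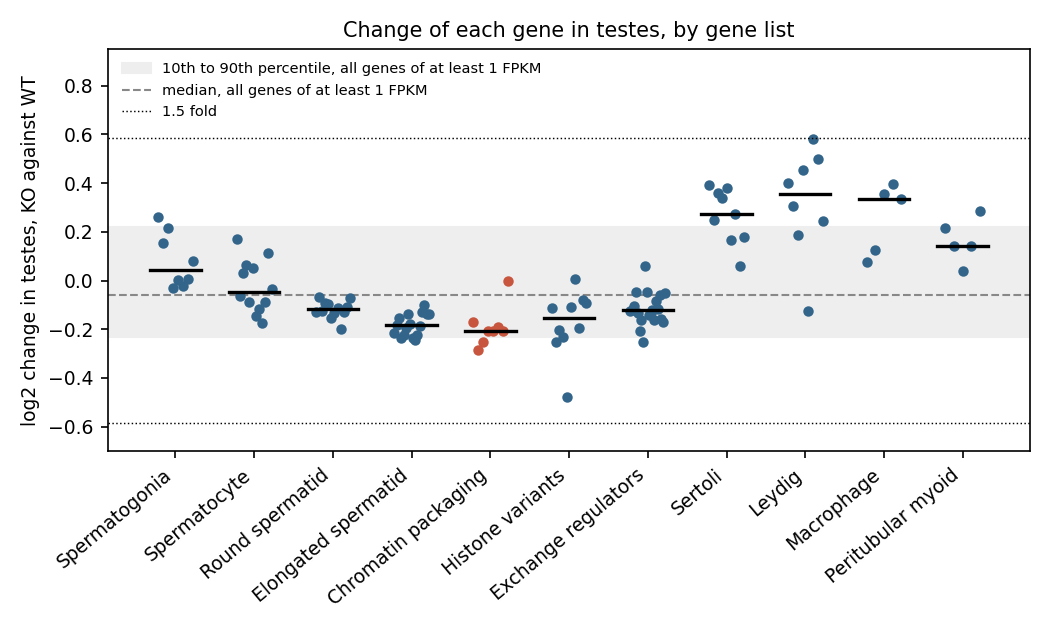
Log2 change of each gene in testes, KO against WT, by gene list, for genes with a mean of at least 1 FPKM; points are genes and black lines are list medians. The grey band is the 10th to 90th percentile of all such genes (-0.23 to 0.22), the dashed line their median (-0.06) and the dotted lines 1.5 fold. The chromatin packaging genes (median -0.21) lie beside the elongated spermatid markers (-0.18), below the spermatocyte markers (-0.05, turning positive under the 3 other scalings) and below the Sertoli (0.27) and Leydig (0.35) markers. Centring on elongated spermatid markers also turned the medians of the round spermatid, histone variant and exchange regulator lists positive. These signs follow from a fixed upward shift of every change and are no separate result.

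Among the elongated spermatid markers the largest differences were those of Spem1, a gene needed for removal of the cytoplasm from the sperm head, at 617 FPKM in WT and 520 FPKM in KO, and of Gsg1, at 1910 FPKM in WT and 1620 FPKM in KO. Both changes were -0.24. Among the round spermatid markers they were those of Izumo1, the sperm protein that binds the egg, at 77.6 FPKM in WT and 67.6 FPKM in KO (-0.20), and of the kinase gene Tssk1, at 305 and 274 FPKM (-0.16). Among the spermatocyte markers Sycp1, a structural protein of the synaptonemal complex, was at 65.3 FPKM in WT and 73.5 FPKM in KO (0.17), and Msh4, a meiotic recombination gene, was at 5.45 and 5.91 FPKM (0.11). Pou5f2 was at 32.6 and 28.8 FPKM (-0.17), and Ccna1, the meiotic cyclin A1, was at 101.9 and 92.0 FPKM (-0.15); with centring on elongated spermatid markers both turned positive. In the spermatogonia list Zbtb16, a gene of undifferentiated spermatogonia, was at 1.10 and 1.33 FPKM (0.26) and Stra8, which is switched on at entry into meiosis, was at 8.74 and 10.2 FPKM (0.21). Dmrt1 and Gfra1 were at -0.03 and -0.02, and turned positive under all 3 other scalings.

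Markers of the somatic cells of the testis went the other way. All 9 Sertoli markers with a mean of at least 1 FPKM were higher in the KO, with a median of 0.27. The summed FPKM of the 10 listed genes was 622 in WT and 774 in KO, most of it from Clu at 475 and 601 FPKM. Sox9, the Sertoli cell transcription factor, was at 3.71 FPKM in WT and 4.91 FPKM in KO (0.39), and Cldn11, a tight junction gene of the blood-testis barrier, was at 40.4 and 52.6 FPKM (0.38). Of the 8 Leydig markers 7 were higher, with a median of 0.35. Their sum was 1015 FPKM in WT and 1431 FPKM in KO, most of it from Insl3. Insl3, the peptide hormone of Leydig cells, was at 756 FPKM in WT and 1131 FPKM in KO (0.58), Lhcgr, the luteinizing hormone receptor, was at 1.31 and 1.90 FPKM (0.50), and Hsd3b6 was at 50.8 and 46.5 FPKM (-0.13, turning positive with centring on elongated spermatid markers). The 5 macrophage markers with a mean of at least 1 FPKM had a median of 0.33, led by Mrc1 at 8.14 and 10.7 FPKM and Csf1r at 2.61 and 3.37 FPKM, and the 5 peritubular myoid markers had a median of 0.14, led by Des at 1.72 and 2.12 FPKM and Acta2 at 22.1 and 25.7 FPKM. None of these 4 lists had a gene past 1.5 fold at the main setting, but Insl3 lay just below it. The 3 other scalings shift the changes upward by about 0.06 to 0.18. Insl3 was past 1.5 fold under each of them, and Lhcgr with equal totals and with centring on elongated spermatid markers. With that centring the Leydig markers Hsd3b1 (0.45 at the main setting) and Star (0.40) were also past it, Star only just. The share of RNA from somatic markers thus differed between the genotypes in the direction opposite to the chromatin packaging genes, and its part in their values was not tested.

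The genes that act around the exchange were described by 2 further lists. Of the 12 testis histone variants and related histones, 11 were in the table and 10 had a mean of at least 1 FPKM. Their median change was -0.15, with 9 of 10 lower and none past 1.5 fold. Hist1h2ba, the testis H2B variant, was at 3.14 FPKM in WT and 2.62 FPKM in KO (-0.25). H2afb1, matched by its gene identifier and listed as Gm14920, was at 1.46 and 1.02 FPKM (-0.48), and H3f3b, a gene of the replacement histone H3.3, was at 324 and 326 FPKM (0.01). Several of these histone genes make transcripts without a poly(A) tail in dividing cells, and the libraries were made from polyadenylated RNA, so the low levels of the Hist1 genes do not give their total RNA. The list median was -0.06 with equal totals and turned to 0.03 with centring on elongated spermatid markers.

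Of the 20 protamine exchange regulators all had a mean of at least 1 FPKM. Their median change was -0.12, with 19 lower and 1 higher and none past 1.5 fold. Tssk6, a spermatid kinase, was at 267 FPKM in WT and 224 FPKM in KO (-0.25), and Ybx2, which binds and stores the protamine and transition protein transcripts, was at 1987 and 1721 FPKM (-0.21). Rnf8, a ubiquitin ligase that acts on histones, was at 12.3 and 12.8 FPKM (0.06). The list median was -0.02 with equal totals and turned to 0.06 with centring on elongated spermatid markers. Crem, the spermatid activator of many of these promoters, named here for that role, was at 267 FPKM in WT and 245 FPKM in KO (-0.12).

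Of the 8 genes, 4 lie in 1 cluster. In mm10 coordinates Tnp2 (chr16:10787936-10788655), Prm3 (chr16:10790507-10790913), Prm2 (chr16:10791383-10792105) and Prm1 (chr16:10796326-10796886) follow each other on the minus strand within 8951 bp. Within it the changes were -0.21, -0.25, -0.29 and -0.17, in that order. Socs1, a cytokine signalling inhibitor on the Tnp2 side at a gap of 2400 bp, was at 2.39 FPKM in WT and 2.16 FPKM in KO testes (-0.14), and Gm11172 on the Prm1 side was listed at 0 in both. The high level in testes was thus not shared by the flanking genes. Tnp1 (chr1:73015083-73015899) lies on its own, with a gap of 140199 bp to Igfbp5, which was at 0.858 and 0.764 FPKM, and of 894332 bp to Tns1, at 59.8 and 54.1 FPKM (-0.15). Hils1 lies between Col1a1 and Ppp1r9b, the latter at 15.4 and 13.6 FPKM (-0.19). H1fnt (chr15:98255982-98257307) lies 28281 bp from Zfp641, at 0.431 and 0.444 FPKM, and 28339 bp from Olfr286, which was below 0.032 FPKM in both. Brdt (chr5:107331159-107387058) lies between Tgfbr3, at 5.31 and 5.32 FPKM, and Ephx4, at 3.18 and 2.37 FPKM (-0.41).

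The transcripts of these genes are short, and this bears on levels compared between genes. In the GENCODE models the transition protein and protamine transcripts have 1 or 2 exons and exonic lengths of 410 to 621 bases, Hils1 and H1fnt have 1 exon and 864 and 1308 bases, and Brdt has 19 exons and 4745 bases. FPKM divides by length, and for transcripts near the size of a sequenced fragment that division depends on the length model, so the order of levels among genes is less certain than the WT to KO ratio of 1 gene.

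The promoters were read to show what the genes that were lower together share. Below are the 99 bases before the RefSeq start of transcription (GRCm38.p6, the same assembly as mm10) and the first transcribed base, 5′ to 3′ on the gene's strand, for the 6 genes with a match. Capitals mark the 8-base pattern TGACNTCA and TATAA, a core of the TATA box, each searched on both strands in the whole 300-base window. TGACNTCA was chosen for its likeness to the sites of the CRE family of activators that includes Crem. Its base N may be any base, so a match need not be such a site.
Prm1 (chr16:10796823-10796922, minus strand): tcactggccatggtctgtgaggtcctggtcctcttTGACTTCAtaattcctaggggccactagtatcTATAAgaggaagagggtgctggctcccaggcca
Prm2 (chr16:10792105-10792204, minus strand): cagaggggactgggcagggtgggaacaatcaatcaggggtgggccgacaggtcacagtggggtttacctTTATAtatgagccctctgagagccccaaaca
Prm3 (chr16:10790914-10791013, minus strand): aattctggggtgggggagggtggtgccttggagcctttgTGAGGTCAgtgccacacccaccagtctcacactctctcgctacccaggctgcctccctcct
Tnp1 (chr1:73015899-73015998, minus strand): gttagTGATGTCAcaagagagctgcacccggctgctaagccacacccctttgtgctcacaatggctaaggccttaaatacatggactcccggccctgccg
Tnp2 (chr16:10788655-10788754, minus strand): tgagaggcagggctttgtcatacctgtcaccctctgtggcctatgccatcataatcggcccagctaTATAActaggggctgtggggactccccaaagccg
Hils1 (chr11:94967494-94967593, plus strand): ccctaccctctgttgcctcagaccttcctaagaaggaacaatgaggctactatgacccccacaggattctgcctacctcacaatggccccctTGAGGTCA

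The TGACNTCA sequence was found in 4 of the 8 promoters, those of Prm1, Prm3, Tnp1 and Hils1, and in 8.83% of all 32851 promoters of the table. Its first base lay 64 bases before the start in Prm1, 60 in Prm3, 94 in Tnp1 and 7 in Hils1. Along the gene the letters were TGACTTCA in Prm1, TGATGTCA in Tnp1 and TGAGGTCA in Prm3 and Hils1. In Hils1 the match ran to the first transcribed base. TATAA was found in 3 of the 8, those of Prm1, Prm2 and Tnp2, 30 to 33 bases before the start, and in 24.9% of all promoters. In Prm2 it lay on the opposite strand and reads TTATA along the gene. H1fnt (named H1f7 in that table) and Brdt had neither. The genes with the TGACNTCA sequence had changes of -0.17, -0.25, -0.21 and -0.19 and those without it, Prm2, Tnp2, H1fnt and Brdt, had -0.29, -0.21, -0.21 and -0.0019, so the ranges overlapped. A match is a description of these letters and not a measured binding site.

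Outside the testes the transition protein and protamine transcripts were at or near 0. Prm3 was listed at 0 in all 12 values of the 6 other tissues, Tnp1 in 11 of 12 and Prm2 in 10 of 12. The highest value was 0.117 FPKM for Prm1, in WT spleen, 0.10 FPKM for Tnp2, also in WT spleen, 0.019 FPKM for Tnp1, in KO eye, and 0.016 FPKM for Prm2, in WT heart. H1fnt stayed at or below 0.014 FPKM. FPKM totals differed between tissues, from 378014 in WT eye to 1124500 in WT liver, so only differences far larger than that are read between tissues; for Prm1, Prm2, Tnp1, Tnp2 and H1fnt the lower of the testes values was at least 41499 times the highest value elsewhere.

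**Figure D4:**
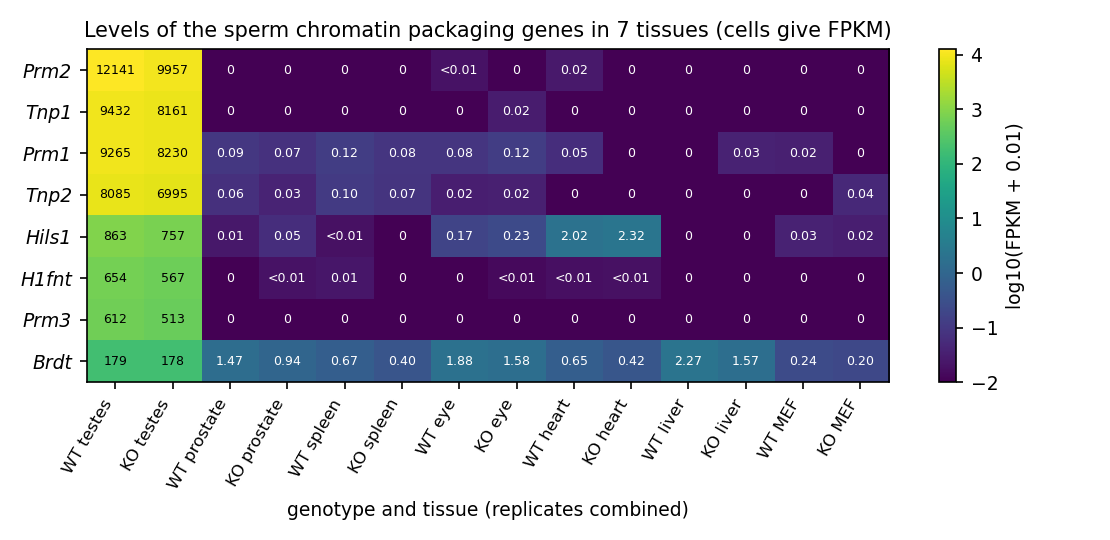
FPKM of the 8 sperm chromatin packaging genes (rows) in WT and KO of 7 tissues (columns), coloured by log10(FPKM + 0.01) with the FPKM written in each cell; each cell is 1 combined value. All 8 are high in testes of both genotypes, Hils1 reaches 2.32 FPKM in heart and Brdt 2.27 FPKM in liver, and the other 6 stay at or below 0.12 FPKM outside the testes.

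Hils1 and Brdt were the exceptions. Hils1 was at 2.02 FPKM in WT and 2.32 FPKM in KO heart (0.19), where 2.32% of genes were past 1.5 fold, and at 0.170 and 0.228 FPKM in eye; in the other 4 tissues it stayed at or below 0.053 FPKM. Its single exon (chr11:94967593-94968456, plus strand) lies inside the locus of Sgca (chr11:94962791-94976327, minus strand), which encodes the muscle protein alpha-sarcoglycan. Sgca was at 104.9 FPKM in WT and 115 FPKM in KO heart, at 6.52 and 12.4 FPKM in eye and at 12.6 and 11.1 FPKM in testes. None of the 864 bases of the Hils1 exon lies under an exon of the 5 annotated Sgca transcripts, so Hils1 is intronic to Sgca. The library kit did not mark strand, so reads of unspliced Sgca RNA and of Hils1 cannot be told apart there, and the heart value of Hils1 is uncertain. In testes Hils1 was far above Sgca.

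Brdt was detected in all 12 values outside the testes and was lower in the KO in all 6 tissues. It was at 2.27 FPKM in WT and 1.57 FPKM in KO liver (-0.51), at 1.88 and 1.58 FPKM in eye (-0.24) and at 1.47 and 0.943 FPKM in prostate (-0.59). The prostate value was past 1.5 fold, where 3.08% of genes were, but only just, and was not past it at -0.35 with a pseudocount of 1 FPKM or at -0.53 with equal totals, alternatives chosen after seeing the data; the eye and liver values were not, against 3.51% and 4.81% of genes. The prostate samples also differed in markers of other tissues. The 7 seminal vesicle markers summed to 9710 FPKM in WT and 19488 FPKM in KO prostate, all 7 with a mean of at least 1 FPKM, and the 12 round spermatid markers, 2 of them with such a mean, to 104.8 and 68.4 FPKM. In the same prostate samples Prm2, Prm3 and Tnp1 were at 0 in both genotypes, and Prm1 was at 0.085 FPKM in WT and 0.066 FPKM in KO. The part of other tissues in the Brdt value was not tested. In heart, spleen and MEFs its mean was below 1 FPKM, with changes of -0.52, -0.62 and -0.20. The direction was the same in the 6 tissues, also with equal totals (from -0.64 to -0.16). How many of all genes were lower in all 6 was not counted, so no background stands beside it. The WT and KO levels of Brdt differed by less than 0.8 FPKM in each tissue and were not set against the spread between mice.

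The elongated spermatid markers were also low outside the testes. Their 16 genes summed to 21349 FPKM in WT and 18851 FPKM in KO testes and to between 7.33 and 34.4 FPKM in the 6 other tissues, where 3 to 7 of the 16 were at 0 in both genotypes. In eye 2 of the 16 had a mean of at least 1 FPKM and in each of the other 5 tissues 1 did, so these sums rested on 1 or 2 genes. The testes samples in turn carried little of the other tissues: prostate, liver and eye markers had no gene with a mean of at least 1 FPKM in testes. Cd74, an antigen presentation gene from the spleen list, was at 10.5 FPKM in WT and 19.2 FPKM in KO testes (0.87), and among the epididymis markers Rnase10 was at 2.71 and 1.62 FPKM (-0.71) and Cst8 at 355 and 335 FPKM (-0.08, turning positive with equal totals and with centring on elongated spermatid markers). At the main setting Cd74 and Rnase10 were past 1.5 fold in testes, beside 1.92% of all genes with a mean of at least 1 FPKM. Only 2 of the 8 epididymis markers and 1 of the 7 seminal vesicle markers, Svs5 at 3.96 and 4.83 FPKM, had a mean of at least 1 FPKM in testes. Below that mean, the epididymis marker Lcn5 was at 0 FPKM in WT and 0.833 FPKM in KO. Crisp1 and Adam7 were also higher in the KO, Lcn9 and Rnase9 were lower and Lcn8 was at 0 in both, with no value above 0.187 FPKM. Tnni3 of the heart list was at 44.6 and 43.1 FPKM (-0.05, turning positive under the 3 other scalings), and Col1a1 and Postn of the MEF list were at 1.61 and 1.85 FPKM and at 3.57 and 3.80 FPKM. Each tissue carried its own markers, such as Pbsn at 25020 FPKM in WT prostate and Apoa1 at 12014 FPKM in WT liver, but Tgm4 of the prostate list was at 0 in prostate of both genotypes.

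The genes whose profile over the 14 genotype and tissue values was most like the mean profile of the 8 genes were Gstt4, Aldoart2, Adcy10, 1700110M21Rik and Fam187a. Pearson's r on log2(FPKM + 0.1) was 0.9997, 0.9996, 0.9995, 0.9995 and 0.9995, over 15135 genes compared. These points share libraries and fall into testes and non-testes values, so r near 1 mainly describes the gap between testes and the other tissues, and 1512 genes had r above 0.99. Adcy10 is the soluble adenylyl cyclase of sperm and Aldoart2 a sperm aldolase. In testes Gstt4 was at 335 FPKM in WT and 290 FPKM in KO (-0.21), Aldoart2 at 298 and 256 FPKM (-0.22), Adcy10 at 119 and 109 FPKM (-0.13), 1700110M21Rik at 383 and 350 FPKM (-0.13) and Fam187a at 6.59 and 6.45 FPKM (-0.03). The median change of the 1512 genes was -0.12.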

How the data were processed

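The authors deposited 1 table of FPKM values in the layout of Cuffdiff, with 1 value per genotype and tissue that combines the replicates. Their processing notes name CASAVA 1.8.2, TopHat2, Cuffdiff and the build mm10; their order and settings are not given in the sources used here, nor is how replicates were combined. FPKM was read from that layout. Columns of the same table that hold the authors' fold changes, test statistics, p-values and calls were not used. Adult brain was not analysed here.

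Groups came from the sample titles. Genes were matched by symbol, and listed genes by Ensembl identifier through GENCODE vM21, which is on the same assembly; this placed the histone genes H2al2a and H2afb1, and H2al1m was not matched. Promoters came from RefSeq (GRCm38.p6), where all 8 genes matched. The change was log2((KO + 0.1)/(WT + 0.1)), and genes with a mean of WT and KO of at least 1 FPKM were counted past 1.5 fold. No test was run on the combined values, and the depth per sample is unknown. Named genes were the 8 genes, Tug1, lacZ, the 2 largest rises and 2 largest falls of each list, the neighbours in the genome and the 5 genes most alike in profile. The genes and lists were chosen with earlier results of these data known. The fold calculation was checked on simulated data with planted folds. This checks the arithmetic and does not measure how reliable a call is in these data. Python 3.11.15, numpy 2.4.6, pandas 2.3.3 and matplotlib 3.10.9 were used.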

Additional observations from a re-analysis of the deposited data

How the results depend on the processing

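None of the 8 genes was past the fold at 1.5 fold, at 2 fold or with 1.5 fold lowered by 0.25, with a pseudocount of 0.01 or 1 FPKM, or under the 3 other scalings. The median change of the 8 genes, -0.21, was -0.15 with the changes centred on the median of all genes, -0.11 with each genotype scaled to the same FPKM total and -0.023 with the changes centred on elongated spermatid markers. The last value follows from a fixed upward shift of 0.18 and is no separate result. The equal totals shifted the median of all genes by 0.099. The share of all genes past the fold, 1.92%, was 9.76% at the lowered fold, 0.475% at 2 fold, 0.603% among genes with a mean of at least 10 FPKM, 5.03% with no minimum above 0, and 0.911% with a pseudocount of 1 FPKM. No paired analysis was possible because the columns hold 1 combined value per genotype and carry no replicate numbers, and for the same reason no replicate could be left out. Differences of 11.2% to 18.0% were not set against the spread between mice or the depth of each sample.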
